A study of Rattus norvegicus with 12 samples.

Results

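The Lachnospiraceae NK4A136 group is a genus-level clade of gut bacteria that sequence databases name after a strain. Its members here were all amplicon sequence variants (ASVs, exact 16S rRNA gene sequences inferred from the reads) whose deposited lineage carried the genus name Lachnospiraceae_NK4A136_group. The rule used the lineage and no measured value, and it found 180 of the 7240 ASVs in the table, or 2.49%. Every one of them stood in the same lineage above the genus, through the phylum Firmicutes, the class Clostridia, the order Lachnospirales and the family Lachnospiraceae, so the label and the higher ranks did not conflict. The variants have no names in the files and no sequence accompanies them, so they are called here variant 1 to variant 180 by rank of mean share over the 12 libraries.

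Faeces of rats were sequenced in 4 groups of 3 libraries to ask whether the gut microbiota differed among them. SAH+Tet+ABX rats had the subarachnoid haemorrhage model, tetrandrine (an alkaloid drug from a vine root) and ABX, a common short form for antibiotics. SAH+Tet rats had the haemorrhage model and tetrandrine, SAH rats the model alone, and Sham rats the sham operation. All SAH+Tet+ABX and SAH+Tet libraries thus share the haemorrhage and the drug. A second treatment label names a cell differentiation protocol in every group, does not describe rat faeces and was not used. The sources used here give no age, strain, dose, sampling time or housing and do not list the drugs within ABX. Nothing in the labels ties each library to an animal of its own. The p-values therefore measure the spread between these libraries, which may in part be technical.

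As background, Lachnospiraceae are strict anaerobes of the large intestine that ferment plant fibre, and many of them make butyrate, a short-chain fatty acid that colon cells use as fuel. The NK4A136 group is common in the caecum and faeces of rodents, and it is usually counted among the fibre-fermenting, butyrate-producing clades. A 16S name alone does not assign a function to a single variant. A 16S read count gives relative abundance only: a lower share may mean fewer cells of the genus or more of other bacteria, and these cannot be told apart here.

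Library totals ran from 211450 to 531426 reads and fell into a lower depth class of 5 libraries (SAH+Tet+ABX 1, 2 and 3, SAH+Tet 3 and SAH 1) and a higher class of 7, with none near the boundary of 300000 reads. A variant with 0 reads in a library could still hold up to 0.000565% to 0.00142% of it (3 reads of the library total, counting error only, since copies made by PCR are not independent molecules). Corynebacterium, a genus outside the family, took 7.19% to 10.3% of the reads of SAH+Tet 1, SAH+Tet 2, SAH 2 and SAH 3 and at most 0.0451% of the other 8 libraries, which lowers every other share in those 4. Its part in the shares given here was not tested.

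The summed share of the genus was low after haemorrhage alone, high with tetrandrine and in sham rats, and low and uneven with antibiotics. The genus held 3.74%, 1.87% and 0.544% of the reads of the SAH+Tet+ABX libraries and 4.70%, 7.38% and 4.78% of the SAH+Tet libraries. In the SAH libraries it held 1.90%, 1.40% and 2.41%, and in the Sham libraries 4.56%, 5.36% and 4.27%. Every SAH library lay below every Sham and SAH+Tet library, and every SAH+Tet+ABX library lay below every SAH+Tet and Sham library. The group means were 2.05% ± 1.61 in SAH+Tet+ABX, 5.62% ± 1.53 in SAH+Tet, 1.90% ± 0.506 in SAH and 4.73% ± 0.562 in Sham (SD, n = 3 each). SAH+Tet and Sham were the higher pair and their ranges overlapped, as did those of the lower pair, SAH+Tet+ABX and SAH. Counting error was small beside this spread: the 95% Wilson interval was 0.516% to 0.574% for SAH+Tet+ABX 3 and 7.31% to 7.46% for SAH+Tet 2.

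**Figure D1:**
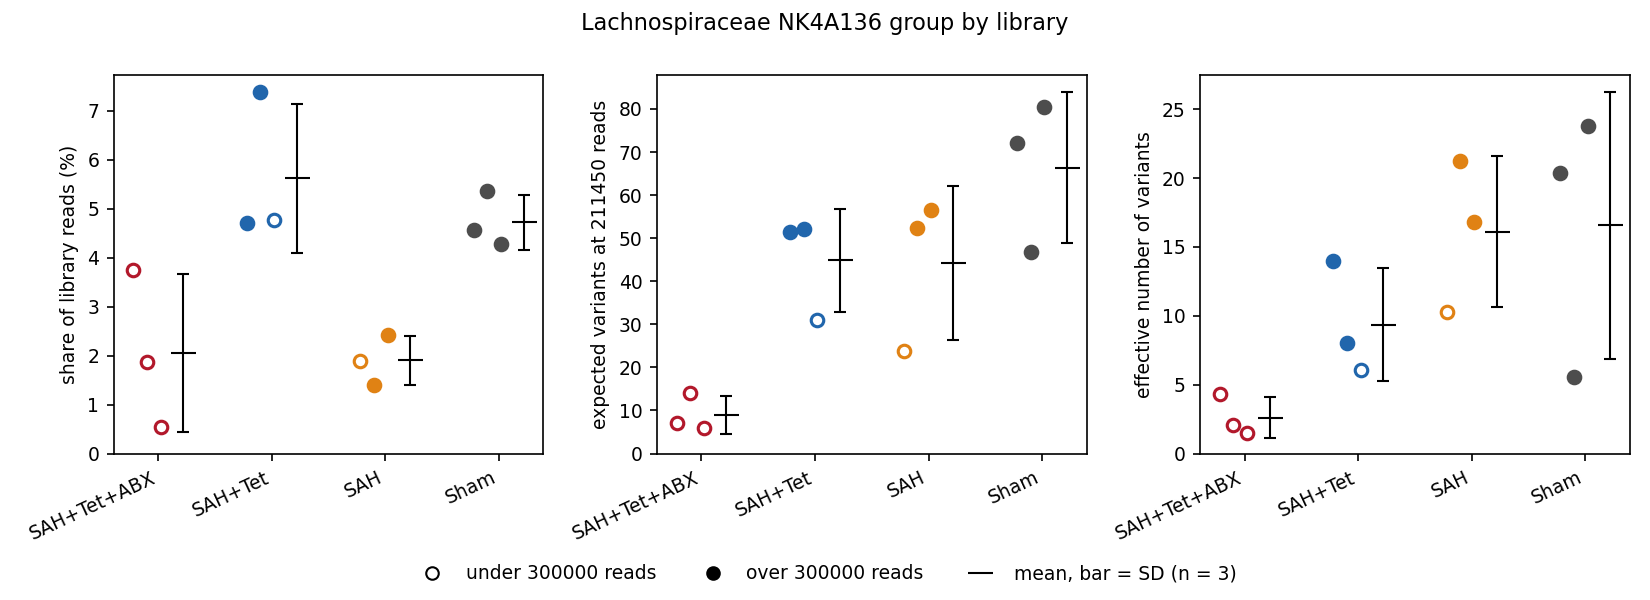
The left panel plots the share of library reads held by the Lachnospiraceae NK4A136 group (%), the middle panel the number of its variants expected at 211450 reads and the right panel the effective number of variants, for each library of the 4 groups; open points are libraries under 300000 reads, and dashes with bars are the mean and SD of 3 libraries. The SAH shares lie between 1.40% and 2.41%, below all SAH+Tet and Sham shares, while the variant number is lowest in SAH+Tet+ABX (5.86 to 14).

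An exact permutation test of the log2 share over all arrangements of the 12 libraries into 4 groups gave p = 0.0495, with 62.4% of the variation between groups (n = 3 each). It was 1 of 4 such tests on the genus, and adjusted over them by the Benjamini-Hochberg method it was 0.0660 and did not pass. The permutation test passed without SAH+Tet+ABX 1 (p = 0.00234) and without SAH+Tet+ABX 3 (p = 0.0112), and its p lay between 0.0666 and 0.0929 when any 1 of the other 10 libraries was left out. Between pairs of groups the smallest two-sided p that 3 against 3 libraries can give is 0.1, so no pair could pass. The pairs SAH with Sham, SAH+Tet with SAH and SAH+Tet+ABX with SAH+Tet all reached that 0.1 (exact permutation; adjusted over the 4 pairs 0.133), and SAH+Tet with Sham gave 0.5.

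On the log2 scale the difference in share was -1.34 for SAH minus Sham, 1.56 for SAH+Tet minus SAH, 0.22 for SAH+Tet minus Sham and -1.82 for SAH+Tet+ABX minus SAH+Tet. As a ratio of geometric means, the share was 0.395 times that of Sham in SAH and 2.96 times that of SAH in SAH+Tet. Within a depth class the differences kept these directions. In the higher class SAH against Sham was -1.36 and SAH+Tet against SAH was 1.68, and in the lower class SAH+Tet 3 against SAH 1 was 1.33 and SAH+Tet+ABX minus SAH+Tet 3 was -1.61. On a centred log-ratio scale, which sets the genus against the mean log abundance of all genera, SAH+Tet+ABX against SAH+Tet turned to 0.51 and SAH+Tet against Sham to -0.19, while the other 2 kept their sign. The direction with antibiotics thus holds for the share of reads and not relative to the average genus.

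A test across all genera used edgeR's quasi-likelihood fit of the counts summed per genus, with the adjusted p over all genera tested. In SAH against Sham the genus had a log2 fold change of -1.14 ± 0.33 (SE, n = 3 each) with an adjusted p of 0.115, and no genus of 187 passed 0.05 (0%). In SAH+Tet against SAH it had 1.49 ± 0.33 and an adjusted p of 0.0969, again with 0% of 187 genera called. SAH+Tet against Sham gave 0.36 ± 0.32 and an adjusted p of 0.557, with 0% of 187 genera called. At an unadjusted p under 0.05 there were 55, 33 and 34 genera in these 3 comparisons, and the NK4A136 group was among them in the first (lower) and second (higher). DESeq2 called 50, 32 and 34 genera. It placed the NK4A136 group at -1.10 in SAH against Sham (adjusted p = 0.00896) and at 1.33 in SAH+Tet against SAH (adjusted p = 0.00261), and did not call it in SAH+Tet against Sham (0.23, adjusted p = 0.738). These 3 comparisons share libraries and are not independent of each other. In SAH+Tet+ABX against SAH+Tet the genus had -1.44 ± 0.59 by edgeR and an adjusted p of 0.0756, while 74 of 195 genera were called (37.9%). The median of all 195 genera in that comparison was -1.70, so the NK4A136 group lay near the middle of the tested genera. Without SAH+Tet+ABX 1, the library with the highest share of its group, its log2 fold change was -2.03 and its adjusted p 0.0257. DESeq2 gave -0.92 (adjusted p = 0.181), and edgeR on the 6 libraries of these groups alone gave -0.90 (adjusted p = 0.468), both smaller by over 1.5 times.

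Within its family the genus had its highest part in SAH+Tet. It held 11.4%, 14.2% and 1.65% of the Lachnospiraceae reads in the SAH+Tet+ABX libraries, and 21.5%, 40.5% and 18.4% in the SAH+Tet libraries. In SAH it held 6.42%, 8.69% and 13.8%, and in Sham 15.7%, 26.9% and 13.1%. SAH+Tet stood above both SAH+Tet+ABX and SAH in every library, and SAH and Sham overlapped. The exact permutation test over the 4 groups gave p = 0.0986 (n = 3 each, adjusted over the 4 tests 0.0986) and, of the 12 libraries left out in turn, passed without SAH+Tet+ABX 2 (0.0476) or SAH+Tet+ABX 3 (0.0499) only. The other Lachnospiraceae together held 24.3% ± 11.4 in SAH+Tet+ABX, 16.4% ± 5.22 in SAH+Tet, 19.2% ± 7.36 in SAH and 22.5% ± 7.13 in Sham, with overlapping ranges in all 4 groups.

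The number of variants followed another order than the share. The SAH+Tet+ABX libraries held 7, 14 and 6 variants of the genus, the SAH+Tet libraries 52, 54 and 31, the SAH libraries 24, 54 and 57 and the Sham libraries 73, 48 and 81. The antibiotic libraries thus held fewer variants than any other, while SAH+Tet, SAH and Sham overlapped. Drawn to the lowest library total of 211450 reads, the expected number was 8.95 ± 4.41 in SAH+Tet+ABX, 44.9 ± 12.0 in SAH+Tet, 44.2 ± 17.8 in SAH and 66.4 ± 17.5 in Sham (SD, n = 3 each). The exact permutation test of the 4 groups gave p = 0.00870 with 76.3% of the variation between groups, and 0.0174 when adjusted over the 4 tests. The lower depth class holds every SAH+Tet+ABX library and the poorest library of both SAH+Tet and SAH, and with permutation within depth classes p was 0.113. Within that class SAH+Tet+ABX held 7, 14 and 6 variants, against 31 in SAH+Tet 3 and 24 in SAH 1. Drawing reads to an equal total moved the numbers by less than 2 variants in every library.

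SAH and SAH+Tet therefore held about as many variants, and the share that separated them was made of few of these. The effective number of variants counts variants weighted by how evenly the reads are spread (the exponential of the Shannon entropy). It was 4.30, 2.04 and 1.47 in the SAH+Tet+ABX libraries and 14.0, 8.03 and 6.09 in the SAH+Tet libraries. It was 10.3, 21.2 and 16.8 in the SAH libraries and 20.4, 5.57 and 23.8 in the Sham libraries. Over all libraries, 6 variants held 50% of the 178663 reads of the genus, 39 held 90%, and the 12 most abundant held 72.1%. At the other end, 27 variants had under 10 reads in all, and 68 (37.8%) were seen in 1 library only, against 47.9% of all ASVs in the table. No variant was seen in all 12 libraries. Variants 2, 3 and 18 reached 9, and these were the 9 libraries without antibiotics.

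Which variants made up the genus differed between the groups more clearly than its size did. In an exact permutation test on Bray-Curtis distances between the variant shares of the genus reads, the groups took up 54.2% of the variation with p = 6.49e-05 (n = 3 each), the smallest value that the arrangements of 12 libraries allow. The adjusted p over the 4 tests was 0.00026. Without the antibiotic group the value was 46.7% with an exact permutation p = 0.00357 for the 9 libraries, and within depth classes p was 0.000476. The test passed when any 1 library was left out. Bray-Curtis distances run from 0 for equal mixtures to 1 for mixtures with no variant in common. Within groups their means were 0.696 in SAH+Tet+ABX, 0.713 in SAH+Tet, 0.576 in SAH and 0.512 in Sham. Between groups the mean was 0.995 for SAH+Tet+ABX with SAH+Tet, 0.824 for SAH+Tet with SAH, 0.748 for SAH+Tet with Sham and 0.798 for SAH with Sham. The groups differ in their own spread as well, and this test responds to unequal spread too.

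**Figure D2:**
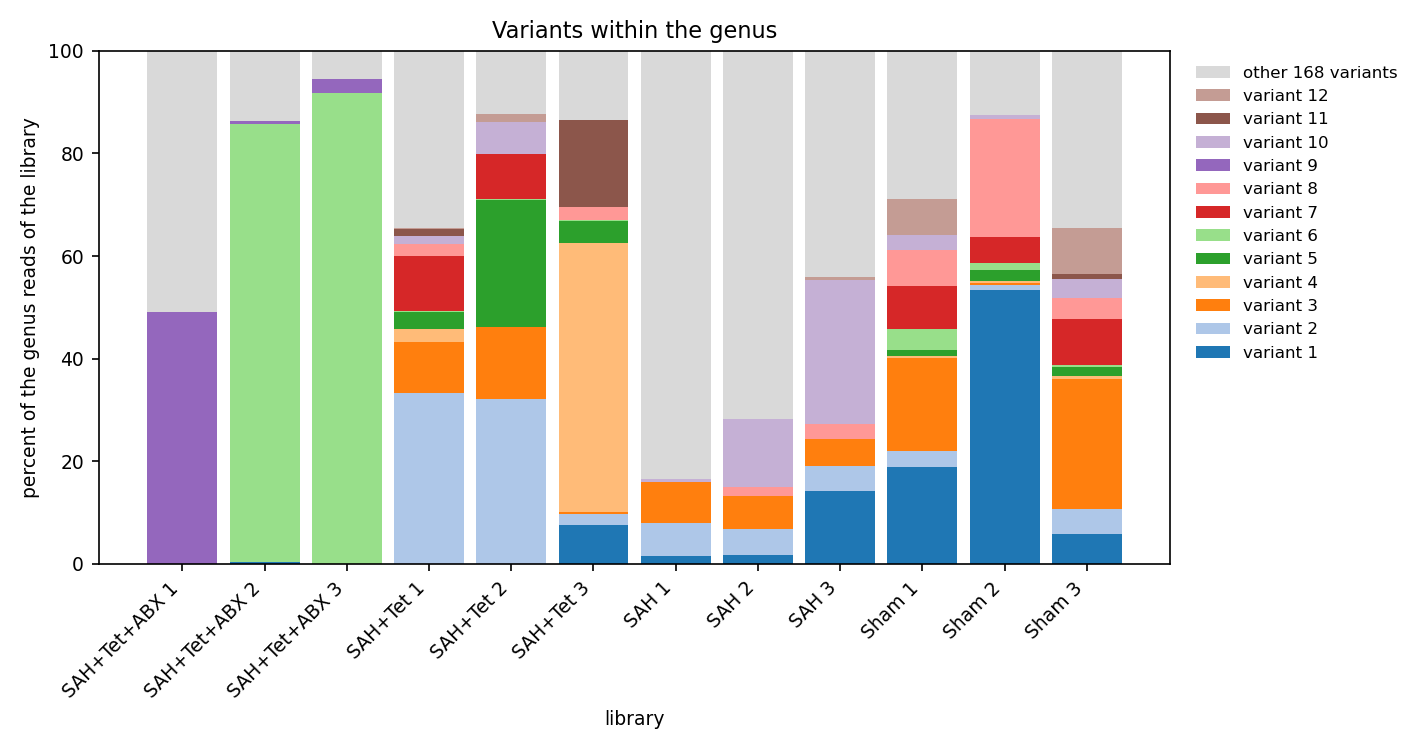
Each bar is a library and shows what percent of its Lachnospiraceae NK4A136 group reads came from each of the 12 most abundant variants and from the other 168. Variant 6 takes 85.3% and 91.8% in SAH+Tet+ABX 2 and 3, and the 12 variants together take between 16.5% and 55.8% in the SAH libraries.

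The leading variant changed from library to library. Variant 9 led SAH+Tet+ABX 1 with 49.1% of its genus reads, and variant 6 led SAH+Tet+ABX 2 and 3 with 85.3% and 91.8%. Variant 2 led SAH+Tet 1 and 2 with 33.3% and 32.0%, and variant 4 led SAH+Tet 3 with 52.4%. Variant 13 led SAH 1 and 2 with 28.8% and 16.9%, and variant 10 led SAH 3 with 28.1%. Variant 1 led Sham 1 and 2 with 18.9% and 53.4%, and variant 3 led Sham 3 with 25.4%. No variant led libraries of more than 1 group.

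In SAH against Sham the lower share rested on a set of common variants that were lower or at 0 in SAH, partly balanced by variants that were higher there. Variant 1 held 0.0278%, 0.0230% and 0.342% of the SAH libraries and 0.861%, 2.86% and 0.251% of the Sham libraries. Its means were 0.131% in SAH and 1.32% in Sham, and the groups overlapped in 1 library each. It accounted for 42.3% of the net difference in mean share, a value that rests on Sham 2: without that library the Sham mean was 0.556% and the part of the net difference 17.0%. Variant 8 held 0%, 0.0260% and 0.0724% in SAH and 0.322%, 1.24% and 0.171% in Sham, with no overlap. Variant 3 held 0.152%, 0.0879% and 0.128% in SAH and 0.827%, 0.0263% and 1.08% in Sham, so that Sham 2 lay below every SAH library.

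Variants 7, 15, 6, 5 and 4 had 0 reads in all SAH libraries and reads in all Sham libraries. In all, 11 of the 180 variants had this pattern (6.11%, against 4.10% of all ASVs). Variant 7 held 0.380%, 0.264% and 0.386% of the Sham libraries, and its mean was at least 422-fold lower in SAH, counted against 3 reads per SAH library. Variant 15 held 0.0936%, 0.0973% and 0.101% in Sham, nearly equal values, and was at least 119-fold lower in SAH. Variants 6 and 5 averaged 0.0944% and 0.0807% in Sham and were at least 116-fold and 99.1-fold lower in SAH. Variant 4 averaged 0.0196% in Sham and was at least 24.1-fold lower in SAH. These variants were picked by their 0 reads in all 3 SAH libraries, of which SAH 2 and 3 are of the higher depth class. The part of depth was not tested.

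Other variants stood higher in SAH. Variant 18, seen in all 9 libraries without antibiotics, held 0.168%, 0.0711% and 0.0457% in SAH and 0.00907%, 0.00562% and 0.00481% in Sham, a 14.6-fold difference of means with no overlap. Variant 24 held 0.0419%, 0.0201% and 0.0221% in SAH and had 0 reads in Sham, which makes it at least 47.1-fold higher. Variant 37 held 0.0157%, 0.00621% and 0.116% in SAH and had reads in no other group. Variant 10 averaged 0.291% in SAH and 0.108% in Sham, with overlapping groups.

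By edgeR 0 of 2283 ASVs passed an adjusted p of 0.05 in SAH against Sham (0%), and so none of the 69 variants of the genus that had enough reads to be tested. At an unadjusted p under 0.05 there were 553 ASVs, among them 5 of the genus that stood higher and 16 that stood lower in SAH. A variant seen in 1 group alone could enter the fit only through the group where it was high, so no p is given for such variants. The counts at an unadjusted p do include them, here variant 37 on the higher side and variants 43, 48, 50 and 69 on the lower. The same holds for SAH+Tet against SAH and SAH+Tet against Sham, so these counts are a description. DESeq2 called 404 of the 2283 ASVs, and of the 69 variants 3 rose and 10 fell. On centred log-ratio values limma called 270 of the 2283, and of the 69 variants 2 rose and 9 fell. The split by direction over all ASVs is not given beside these counts, here or in the comparisons below, so they are a description. The median log2 fold change of the 69 variants was -2.69, beside -0.67 for all 2283 ASVs. Groups that did not overlap were found for 19 of the 139 variants with reads in these 6 libraries on the lower side (13.7%, against 11.0% of all ASVs) and for 3 on the higher side (2.16%, against 3.30%). These shares were near those of all ASVs.

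**Figure D3:**
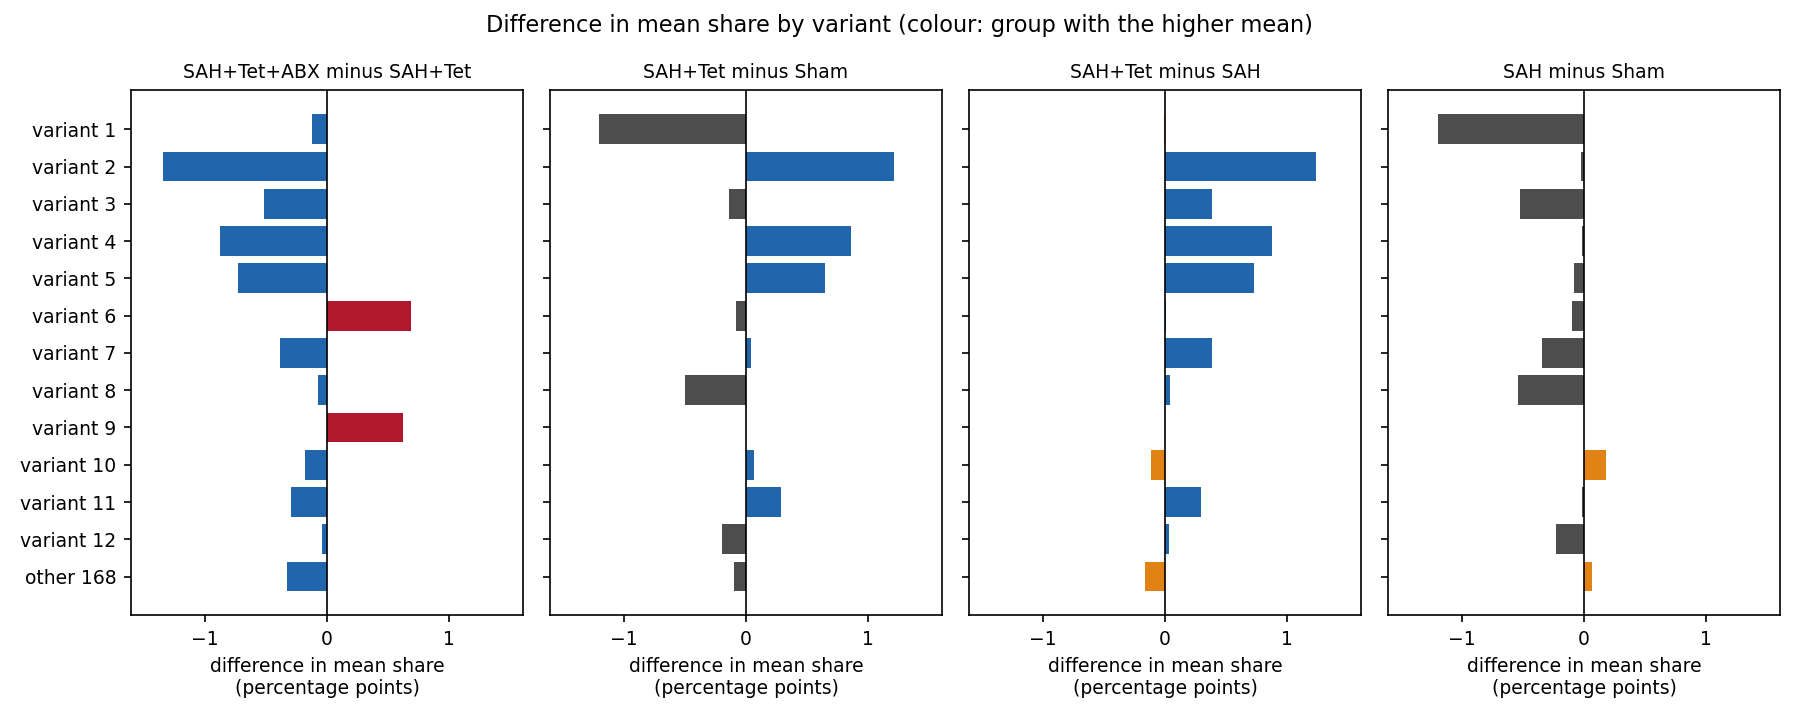
Bars give the difference in mean share of library reads (percentage points) between the groups named above each panel, for the 12 most abundant variants and the sum of the other 168, coloured by the group with the higher mean. Variants 1 and 8 have lower means of their own in SAH and in SAH+Tet than in Sham, whereas variants 2, 4 and 5 have higher means in SAH+Tet than in SAH.

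In SAH+Tet against SAH the gain in share came mainly from variants 2, 4, 5, 3, 7 and 11. The mean share was 3.72 percentage points higher in SAH+Tet, the net of 4.82 points over 80 variants that were higher and -1.10 points over 55 that were lower. Variant 2 held 1.56%, 2.37% and 0.0959% of the SAH+Tet libraries and 0.123%, 0.0736% and 0.118% of the SAH libraries. Its mean was 12.8-fold higher in SAH+Tet, but SAH+Tet 3 lay within the SAH range, so the groups overlapped. Variant 4 held 0.122%, 0% and 2.51% in SAH+Tet, against 0 reads in SAH. Variant 5 held 0.156%, 1.83% and 0.204% in SAH+Tet against 0 reads in SAH, did not overlap, and was at least 896-fold higher.

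Variant 7 held 0.506%, 0.650% and 0% of the SAH+Tet libraries and variant 11 held 0.0694%, 0.00600% and 0.818%, both against 0 reads in SAH. Variant 7 was thus the high one in SAH+Tet 1 and 2, and variants 4 and 11 in SAH+Tet 3, the library of lower depth. Variant 46 held 0.00851%, 0.0902% and 0.00440% in SAH+Tet and had reads in no other group. Variant 37, limited to SAH, was on the lower side. By edgeR 0 of 2283 ASVs were called (0%), and 475 had an unadjusted p under 0.05, with 13 variants of the genus higher and 10 lower in SAH+Tet. DESeq2 called 301 of the 2283 ASVs, with 8 of the 69 variants of the genus higher and 6 lower. Of the same 2283, limma called 112, with 2 of the 69 variants higher and 1 lower. The median log2 fold change of the 69 variants was 1.02, beside 0.15 for all ASVs tested.

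Without overlap stood 5 of 135 variants on the higher side in SAH+Tet against SAH (3.70%, against 4.58% of all ASVs) and 1 on the lower side (0.741%, against 2.84%). The summed share thus separated these groups in every library, while its largest single variants mostly did not. Variants 2 and 7 were low or not detected in SAH+Tet 3, and variant 4 was not detected in SAH+Tet 2. The mixture of variants in SAH+Tet 3 differed from that in SAH+Tet 1 and 2. The Bray-Curtis distance was 0.392 between SAH+Tet 1 and 2, and 0.829 and 0.917 between SAH+Tet 3 and each of these.

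SAH+Tet and Sham had overlapping shares, in which single variants stood at different levels. The groups had 55 variants in common, and those limited to 1 of the 4 groups held on average 2.62% of the genus reads in SAH+Tet and 4.99% in Sham. The mean Bray-Curtis distance between them (0.748) was close to that within SAH+Tet (0.713) and above that within Sham (0.512). The difference of the means was 0.892 points, the net of 3.84 points over the variants that were higher and -2.95 points over those that were lower in SAH+Tet. Variant 1, the leading one in Sham, had 0 reads in SAH+Tet 1 and 2 and 0.364% in SAH+Tet 3, so its mean was 0.121% in SAH+Tet and 1.32% in Sham. Variant 8 held 0.104%, 0% and 0.120% in SAH+Tet and lay below all 3 Sham libraries. Variant 2 averaged 1.34% in SAH+Tet and 0.131% in Sham, a 10.2-fold difference, with SAH+Tet 3 inside the Sham range. Variant 5 averaged 0.729% in SAH+Tet and 0.0807% in Sham, 9.04-fold higher with no overlap. Variants 7 and 15, both at 0 in SAH, had similar means in these groups. Variant 7 averaged 0.385% in SAH+Tet and 0.343% in Sham, and variant 15 averaged 0.0920% in SAH+Tet and 0.0972% in Sham, although SAH+Tet 3 had no read of either.

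Several variants stood apart from Sham in SAH+Tet, and most of these did so in SAH as well. Variant 24 held 0.119%, 0.00716% and 0.0853% of the SAH+Tet libraries and had 0 reads in Sham, at least 119-fold higher. Variant 29 averaged 0.0696% in SAH+Tet and 0.00218% in Sham, and in SAH it averaged 0.0106% and overlapped Sham. Variants 35 and 36 had 0 reads in SAH+Tet and averaged 0.0478% and 0.0420% in Sham, at least 56.1-fold and 49.3-fold lower in SAH+Tet, with SAH means of 0.00389% and 0.00513%. Variants 43, 48 and 50 were seen in all 3 Sham libraries and in no other. By edgeR 0 of 2283 ASVs were called in SAH+Tet against Sham (0%), with 437 at an unadjusted p under 0.05, among them 6 variants higher and 12 lower. DESeq2 called 276 of the 2283 ASVs, with 5 variants of the genus higher and 9 lower. Of the same 2283, limma called 218, with 2 variants of the genus higher and 9 lower. Without overlap stood 5 of 137 variants on the higher side (3.65%, against 2.90% of all ASVs) and 14 on the lower side (10.2%, against 7.83%).

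In SAH+Tet+ABX the genus was held by few variants. Those limited to that group made up 100% of the genus reads in SAH+Tet+ABX 1, but 4.49% and 6.38% in SAH+Tet+ABX 2 and 3, where variant 6, also seen in every SAH+Tet and Sham library, led. Of the 12 most abundant variants, 3 had reads in SAH+Tet+ABX (variants 1, 6 and 9), against 11 in SAH+Tet. Variant 2 had 0 reads in SAH+Tet+ABX, at least 1026-fold lower than its mean of 1.34% in SAH+Tet, and variant 5 was at least 557-fold and variant 3 at least 390-fold lower. Variants 18 and 24 averaged 0.0449% and 0.0706% in SAH+Tet and were at least 34.3-fold and 53.9-fold lower. By edgeR these 5 fell, with adjusted p of 0.0170 for variant 2, 0.0177 for variant 3, 0.0179 for variant 18, 0.0180 for variant 5 and 0.0265 for variant 24. Variants 7, 10 and 27 fell as well (adjusted p 0.0474, 0.0467 and 0.0431), variant 27 being named here after its value was seen.

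These were 8 of 72 variants tested, all lower in SAH+Tet+ABX, and 0 were called higher, while 247 of 2394 ASVs were called in all (10.3%). The share called, near that of all ASVs, does not set the genus apart from the rest of the community. The median log2 fold change of the 72 variants was -6.67, beside -6.61 for all ASVs tested. The count moved with the library left out. The number called over all ASVs in these fits is not given beside it, so this is a description. It was 0 without SAH+Tet+ABX 3, 4 without SAH+Tet+ABX 1, SAH+Tet+ABX 2 or Sham 3, 5 without SAH+Tet 1, SAH 2, Sham 1 or Sham 2, and 15 without SAH 1. Without overlap stood 11 of 107 variants on the lower side (10.3%, against 10.6% of all ASVs) and 1 on the higher side (0.935%, against 1.99%).

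That 1 variant was variant 9, which held 1.84%, 0.0115% and 0.0147% of the SAH+Tet+ABX libraries and had 0 reads in the other 9 libraries. Its mean was at least 729-fold higher than in SAH+Tet, and at least 15.4-fold higher without SAH+Tet+ABX 1. It entered the fit only through SAH+Tet+ABX, so no p is given. Variant 6 held 0%, 1.59% and 0.4999% in SAH+Tet+ABX and 0.00611%, 0.0166% and 0.00528% in SAH+Tet, a 74.6-fold difference of means with overlapping groups and an edgeR adjusted p of 0.103. Variant 6 was also seen in all 3 Sham libraries at 0.194%, 0.0770% and 0.0125% and in no SAH library. SAH+Tet+ABX 2 and 3 were close to each other (Bray-Curtis distance 0.127), because variant 6 dominated both. SAH+Tet+ABX 1 had no read of variant 6, and its distance to the other 2 was 0.989 and 0.973. The 7 variants of SAH+Tet+ABX 1, led by variant 9 and by variants 14, 16 and 17 at 0.587%, 0.516% and 0.443% of the library, had no read in any library of another group. The share of 3.74% in that library was therefore made wholly of variants that were not detected in SAH+Tet, SAH or Sham.

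**Figure D4:**
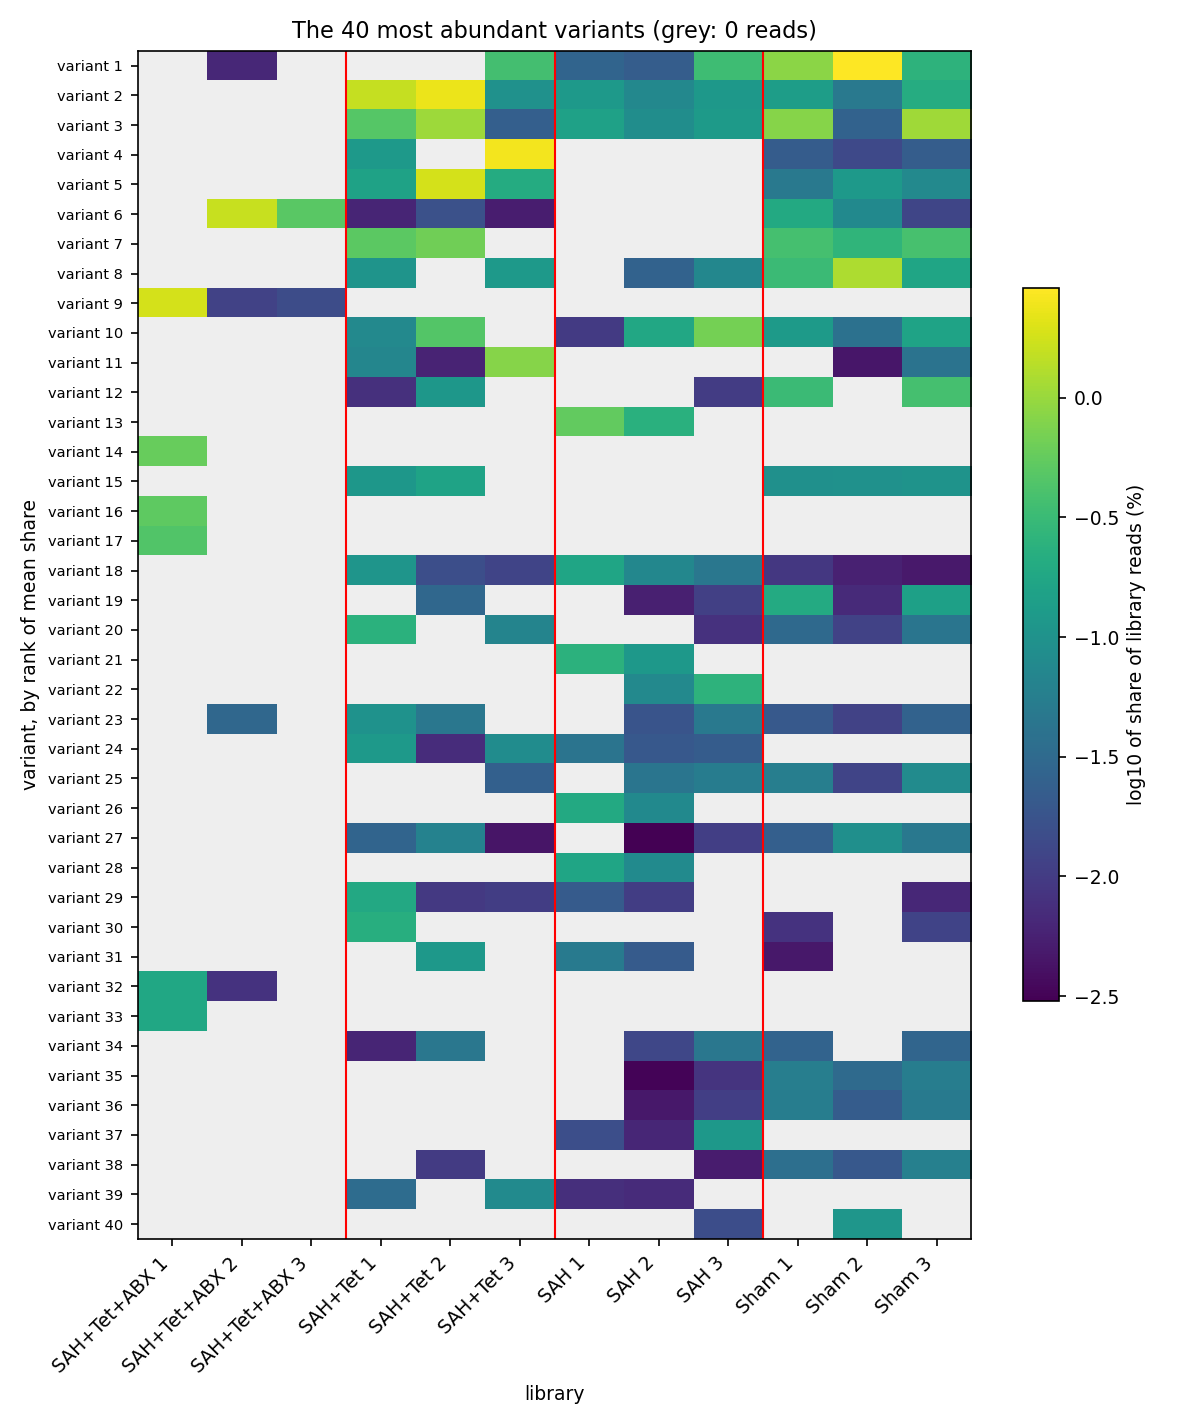
Each row is 1 of the 40 most abundant variants and each column a library, coloured by the log10 of the share of library reads (%), with grey for 0 reads and red lines between the 4 groups. Variants 2, 3 and 18 are filled in all 9 libraries without antibiotics, variants 4, 5, 6, 7, 11 and 15 are grey in all SAH libraries, and most rows are grey in SAH+Tet+ABX.

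Counted by groups with at least 1 read, 22 variants were seen in SAH+Tet+ABX, 92 in SAH+Tet, 84 in SAH and 100 in Sham. Variants limited to 1 group made up 14 of 22 in SAH+Tet+ABX (63.6%, against 47.0% of all its ASVs), 26 of 92 in SAH+Tet (28.3%, against 37.5%), 29 of 84 in SAH (34.5%, against 33.7%) and 30 of 100 in Sham (30.0%, against 35.5%). Only 3 variants were seen in all 4 groups (1.67%, against 4.67% of all ASVs), and 28 in all groups but SAH+Tet+ABX (15.6%, against 15.0%). SAH+Tet shared 55 variants with Sham, which is 59.8% of its 92 and 55.0% of the 100 of Sham. Over all ASVs these shares were 53.1% and 55.2%. It shared 41 with SAH, which is 44.6% of its 92 and 48.8% of the 84 of SAH (44.6% and 54.7% over all ASVs), and 45 were shared by SAH and Sham. Most variants limited to a group were seen in 1 of its libraries: 12 of 14 in SAH+Tet+ABX, 23 of 26 in SAH+Tet, 17 of 29 in SAH and 16 of 30 in Sham. Over all ASVs these counts were 412 of 518, 1231 of 1466, 823 of 1074 and 1002 of 1335.

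**Figure D5:**
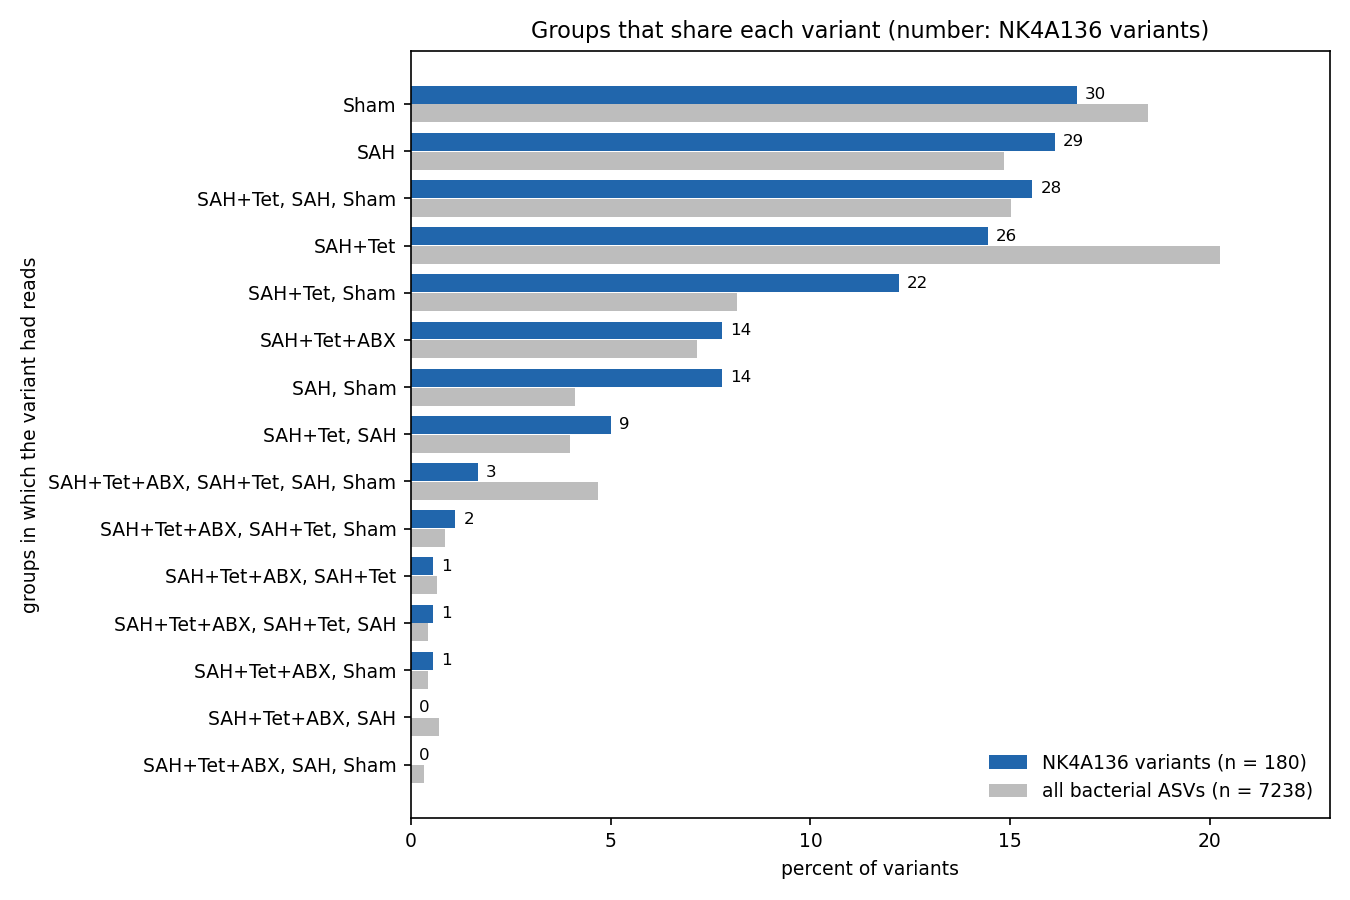
Bars give the percent of the 180 variants of the genus (blue, with their number) and of all 7238 bacterial ASVs (grey) that had at least 1 read in exactly the groups named on the left. Variants limited to SAH (29) and to Sham (30) are the most frequent, and 22 were seen in SAH+Tet and Sham but in no other group.

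The variants limited to SAH carried more reads than those limited to the other groups without antibiotics. They made up 64.4%, 45.7% and 19.0% of the genus reads of the SAH libraries. Variants limited to SAH+Tet made up 4.58%, 1.98% and 1.30% of the SAH+Tet libraries, and those limited to Sham 5.48%, 2.09% and 7.39% of the Sham libraries. Every SAH library thus exceeded every SAH+Tet and Sham library in this measure, which was chosen after the values were seen and was not tested. Variants 13, 21, 26 and 28 with 3 minor ones were seen in SAH 1 and 2 and nowhere else, at a sum of 1.20% and 0.534% of these libraries and 63.3% and 38.1% of their genus reads. The set was picked by its reads in SAH 1 and 2, which lie in different depth classes, and SAH 3 had none of its reads. The part of depth was not tested.

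The opposite pattern, reads in SAH+Tet and Sham and none in SAH, was shown by 24 of the 166 variants seen in these 3 groups (14.5%), against 9.70% of all ASVs. With 2 of 3 libraries required per group it was 11.6% against 11.4%, and with a share of at least 0.01% it was 14.1% against 11.1%. In the higher depth class alone it was 11.9% against 10.1%. The excess over all ASVs thus varied with the definition. Of these variants, 7 had reads in at least 5 of the 6 SAH+Tet and Sham libraries (variants 4, 5, 6, 7, 11, 15 and 90, the last named after its values were seen). That is 3.89% of the 180 variants, against 1.81% of all ASVs. Together these 7 variants held 0.976%, 2.67% and 3.53% of the SAH+Tet libraries and 0.741%, 0.582% and 0.646% of the Sham libraries, with 0 reads in SAH. They were picked by their absence from SAH, so this difference is a description.

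A species field accompanied 16 of the 180 variants. In 15 it read Trichinella_pseudospiralis, the name of a parasitic nematode set inside a bacterial lineage, and in variant 33 it read Clostridiales_bacterium. The sources used here do not name the database that gave this field, and it was not read as the presence of a worm. The 15 variants, of which variant 2 was by far the most abundant, held 0% of all SAH+Tet+ABX libraries and 2.03%, 2.58% and 0.162% of the SAH+Tet libraries. They held 0.215%, 0.150% and 0.257% of the SAH libraries and 0.248%, 0.0768% and 0.345% of the Sham libraries. As a part of the genus reads they made up 43.2%, 34.9% and 3.40% in SAH+Tet, 11.3%, 10.7% and 10.6% in SAH and 5.45%, 1.43% and 8.09% in Sham, with SAH above Sham in every library.

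The rest of the family had mixed directions. The family list held 36 other features with a genus name or without one, of which 29 were tested without the antibiotic group and 31 with it. By edgeR 0 of the 29 were called in SAH against Sham, in SAH+Tet against SAH and in SAH+Tet against Sham, with 6 higher and 5 lower, 2 higher and 7 lower, and 2 higher and 1 lower at an unadjusted p under 0.05. For all 187 genera these splits were 35 higher and 20 lower, 11 and 22, and 25 and 9. The median log2 fold changes of the 29 were 0.22, 0.43 and 0.10, beside 0.10, 0.28 and 0.07 for all genera. In SAH+Tet+ABX against SAH+Tet 7 rose and 7 fell of 31 (18 rose and 56 fell of all 195 genera), with a median of 0.05 beside -1.70 for all genera. Eisenbergiella and the [Ruminococcus]_gnavus_group, counted as risen, had reads in SAH+Tet+ABX only. They entered the fit only through that group, so the count of rises is a description.

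Among genera of the family known for butyrate or other short-chain fatty acids, Roseburia averaged 0.925% ± 0.519 in SAH+Tet, 3.29% ± 1.86 in SAH and 2.44% ± 0.684 in Sham, so its highest mean was in the group where the NK4A136 group was lowest. Roseburia fell with antibiotics to 0.00399% ± 0.00690 in SAH+Tet+ABX (edgeR log2 fold change -7.68 against SAH+Tet, adjusted p = 0.0132). Blautia, a genus of acetate producers, averaged 2.21% ± 2.35 in SAH+Tet+ABX, 0.0907% ± 0.0436 in SAH+Tet, 3.00% ± 2.65 in SAH and 0.176% ± 0.210 in Sham, and rose in SAH+Tet+ABX against SAH+Tet (4.78, adjusted p = 0.0189). The group means of the [Eubacterium]_xylanophilum_group lay between 0.992% and 1.51%. Oscillibacter, a genus of another family, averaged 0.291% ± 0.356 in SAH+Tet+ABX, 0.553% ± 0.152 in SAH+Tet, 0.340% ± 0.232 in SAH and 0.586% ± 0.218 in Sham. Butyricicoccus, also outside the family, had group means of 0.104% to 0.217%. The highest group mean in Anaerostipes, Coprococcus, Lachnoclostridium and the [Eubacterium]_ventriosum_group and [Eubacterium]_hallii_group was 0.256%. It was not exceeded in Faecalibacterium and Intestinimonas, which belong to other families.

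The genera whose log2 share ran most like that of the NK4A136 group over the 12 libraries were Family_XIII_UCG-001 (Pearson r = 0.868), UCG-009 (0.865), Peptococcus (0.850), ASF356 (0.805) and the Gastranaerophilales (0.804). Over the 9 libraries without antibiotics the same r were 0.793, 0.911, 0.757, 0.800 and 0.528. These are descriptions chosen as the highest of many, and the libraries share group, depth class and a fixed total. UCG-009 averaged 0.0845% ± 0.0503 in SAH+Tet+ABX, 0.176% ± 0.0255 in SAH+Tet, 0.0834% ± 0.0236 in SAH and 0.179% ± 0.0127 in Sham (SD, n = 3 each), and so was low and high in the same groups as the NK4A136 group. ASF356, a member of the same family, averaged 0.0277% ± 0.0461 in SAH+Tet+ABX, 0.0867% ± 0.0394 in SAH+Tet, 0.0176% ± 0.0305 in SAH and 0.0170% ± 0.00508 in Sham. Its highest mean was in SAH+Tet, and its SAH mean rests on SAH 3 alone (0.0528%).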

How the data were processed

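The authors deposited counts: unscaled reads per ASV in 12 rat faecal 16S libraries, with a lineage for each ASV. The submitters' processing notes name fastp and cutadapt, without versions. The sources used here do not give the denoiser, chimera filter, primers or taxonomy database, each of which sets how many variants are reported. The members and lists were chosen with earlier results of these data known.

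Shares are reads over the total of all reads of the library. The 2 eukaryotic ASVs, at most 0.00109% of a library, were left out of the sharing patterns, the counts without overlap and the tests of single ASVs. Tests across features used edgeR 4.0.16 in R 4.3.3 (quasi-likelihood, TMM scaling, at least 10 reads in at least 3 libraries, Benjamini-Hochberg over all features tested), on 9 libraries for comparisons without antibiotics and on all 12 for SAH+Tet+ABX against SAH+Tet. The SE is the log2 fold change over the square root of F. DESeq2 1.42.0 and limma 3.58.1 were alternatives. Single values per library were tested by exact permutation. The shares entered as log2 with 0.5 reads added, the variant number untransformed and the composition as Bray-Curtis distances. Reads without a genus name, Incertae_Sedis included, were summed under their deepest named rank. Variants were named by rule: the 12 of highest mean share, up to 3 per direction and comparison of largest difference without overlap, up to 3 seen in all libraries of 1 group alone, and up to 5 per direction called by edgeR. Other variants were named after their values were seen, as leaders of a library or members of a set, or by their species field. Folds against groups at 0 use 3 reads per library. The tests were checked on simulated data. Replicate libraries differed by far more than counting error (lowest chi-square per degree of freedom 69.8).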

Additional observations from a re-analysis of the deposited data

How the results depend on the processing

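Of 256 recomputed values, 209 were counted as unchanged. For tests this meant the same side of the threshold, and for differences also the same direction. For counts of called variants it meant a similar count, and for the percent of shared variants a value inside the binomial interval. The pairwise share differences could change direction only, since 3 against 3 libraries cannot give a p below 0.1, so they say nothing about the threshold. The difference in composition within the genus passed in all 17 of its alternatives, with p between 6.49e-05 and 0.00357. The share of the genus among the 4 groups passed in 4 of 17: its p was 0.170 on centred log-ratio values, 0.0920 with the replicate block, 0.132 with depth class as a block, and 0.00234 to 0.0929 with 1 library left out. The variant number lost its call with depth class as a block (0.113) and kept it otherwise, 0.00481 to 0.0311 with 1 library left out. The share of the family's reads gave 0.0476 to 0.241 with 1 library left out.

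Centred log-ratio values reversed SAH+Tet against Sham (difference of shares -0.193, limma fold change -0.196) and SAH+Tet+ABX against SAH+Tet (0.507 in both); the cause was not tested. DESeq2 called the genus in SAH against Sham (-1.10) and in SAH+Tet against SAH (1.33), and leaving out 1 library gave -2.03 to -1.001 in SAH+Tet+ABX against SAH+Tet. With Incertae_Sedis kept as a genus, an alternative chosen after seeing the data, edgeR gave -0.99, 1.35, 0.36 and -1.39 for the 4 comparisons. Leaving out a library for the part of variant 1, the limit for variant 9 and the sum of the less abundant variants was likewise chosen after seeing the data.

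Counts of called variants moved most. In SAH against Sham they were 13 with DESeq2, 11 with limma, 13 with no filter beyond 1 read and 13 from the 6 libraries alone, instead of 0, of 69, 69, 166 and 51 tested. Over all ASVs these settings called 404 of 2283, 270 of 2283, 160 of 6720 and 308 of 1703. In SAH+Tet against SAH they were 14, 3 and 11 with the first 3 of these (301, 112 and 90 over all ASVs), and in SAH+Tet against Sham 14, 11, 1 and 9 in the same order (276, 218, 65 and 208 over all). In SAH+Tet+ABX against SAH+Tet, 8 became 26 with DESeq2 (886 of 2394 over all ASVs), 5 with library totals (159), 20 of 180 with no filter (281 of 7238), 5 with depth class as a term (145) and 0 to 15 with 1 library left out. For the fits with 1 library left out the number over all ASVs is not given, so their counts are a description.

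Whether the replicate numbers pair the libraries could not be decided with 3 libraries a group. Of 18 same-number correlations 2 exceeded 0.1 (range -0.586 to 0.496), and 6 of 12 libraries correlated best with their own number. With the replicate block 8 variants were again called in SAH+Tet+ABX against SAH+Tet and 0 in the other comparisons, and the numbers over all ASVs are not given here. With 3 libraries a group, and 6 to 14 variants in the antibiotic libraries, small differences were not detectable.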

Other observations

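The 168 variants outside the 12 most abundant together held 0.731% ± 1.02 in SAH+Tet+ABX, 1.06% ± 0.505 in SAH+Tet, 1.22% ± 0.319 in SAH and 1.16% ± 0.429 in Sham (SD, n = 3 each). The SAH+Tet+ABX mean rests on library 1: its libraries held 1.91%, 0.256% and 0.0298%, the last 2 below all libraries of the other groups, and the mean without library 1 was 0.143%. The ranges of SAH+Tet, SAH and Sham overlapped. The 12 held 1.32% ± 0.707 in SAH+Tet+ABX, 4.56% ± 1.74 in SAH+Tet, 0.685% ± 0.575 in SAH and 3.57% ± 0.991 in Sham. The 12 were ranked on these libraries, so this is a description.

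The genus made up 1.56% ± 0.578 of the ASVs seen in a library in SAH+Tet+ABX, 2.18% ± 0.150 in SAH+Tet, 2.44% ± 0.413 in SAH and 2.87% ± 0.685 in Sham. Its variant number was therefore lower with antibiotics together with that of all ASVs, which was 575 ± 118 in SAH+Tet+ABX and 2121 ± 687 in SAH+Tet.

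The 31 variants with reads in SAH+Tet, SAH and Sham held 64.1%, 59.6% and 15.6% of the genus reads in the SAH+Tet libraries, 29.1%, 43.6% and 70.0% in SAH and 69.0%, 82.4% and 68.0% in Sham. SAH+Tet 3 and SAH 1, both of the lower depth class, had the lowest values of their groups. The part of depth in this was not tested.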
